A study of Homo sapiens with 6 samples.

Results

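CXCL12 is a secreted chemokine, and CXCR4 and ACKR3 are its receptors. RNA of these 3 genes, out of 60651 gene identifiers in the deposited counts, was compared between control and MYCN-induced SK-N-AS cells. The trio was chosen by role, as the ligand, its signalling receptor and its scavenger receptor, and it was selected on values of this same comparison. The differences of the 3 members between the conditions are therefore a description, without a test. SK-N-AS is an established neuroblastoma line of human origin. All 6 cultures came from cells that stably carried the tetracycline repressor and a MYCN gene under its control, and single clones were kept under G418-BC and Blasticidin, with the number of clones used not given in the sources used here. The 3 control cultures are those with ETOH in their titles. The 3 MYCN-induced cultures received tetracycline, and the titles of all 6 give 120 h. Tetracycline and MYCN came together in this design, so their effects cannot be told apart.

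CXCL12 binds to CXCR4, a receptor that signals through inhibitory G proteins and guides cell migration, homing to bone marrow and neural crest development. ACKR3, formerly CXCR7, binds CXCL12 without activating G proteins in the usual way. It recruits arrestins, takes the chemokine into the cell and delivers it for degradation, and so shapes how much CXCL12 remains for CXCR4. In neuroblastoma, both receptors have been studied for their part in growth and spread.

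Depth was high for the whole series, with 64500589 to 102249336 counted read pairs per library. The induced gene, MYCN, averaged 32.7 ± 2.62 CPM over the controls (SD, n = 3), against 210 ± 11.4 CPM over the libraries with tetracycline (SD, n = 3), where CPM are counts scaled to the TMM-normalized library size. A library stood apart: on principal component 1, MYCN-induced replicate 3 had a score of 69.1, replicates 1 and 2 had scores of 13.1 to 14.4, and controls had -40.3 to -25.9. The neuroblastoma transcription factor HAND2 (200 TPM in control cells, a level scaled by exon length and depth) was abundant, while TH, the first enzyme of catecholamine synthesis, was at 0.549 TPM. Of the blood cell, endothelial and epithelial marker lists, 0 of 10 tested genes were called by edgeR, with 2 at an unadjusted p under 0.05 and 0 called by DESeq2. The T cell marker CD3E had no reads in any library, and the summed level of 7 blood cell markers was 3.86 to 4.64 TPM in control and 3.63 to 3.95 TPM in induced cells, most of it CD68.

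In GRCh38 coordinates of the deposited counts, CXCL12 (ENSG00000107562.16) lies on the minus strand of chromosome 10 from 44370165 to 44386493, with 6077 exon bases. CXCR4 (ENSG00000121966.7) lies on the minus strand of chromosome 2 from 136114349 to 136118149, with 2208 exon bases, and ACKR3 (ENSG00000144476.6) on the plus strand of the same chromosome from 236567787 to 236582354, with 2070. No other counted gene overlapped any of the 3, and all their counts were whole numbers. Neither gave a sign of read pairs shared with another gene, though shared pairs can add up to a whole count. The values cover all isoforms of a gene together.

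The promoter windows that RefSeq holds for the members (GRCh38.p14, 250 bases before to 50 after a transcription start) were searched for short motifs on both strands, because MYCN binds the E-box. The table has 1 window for CXCL12 and 3 for CXCR4, and ACKR3 is not in it. The E-box CACGTG was found in none of the 4 windows, against 7.26% of 35116 windows of all genes, which says only that these letters are not in these stretches. The shorter ACGTG, part of the E-box and present in 21.4% of all windows, was not found in the 4 windows either. CCAAT, present in 34.6% of all windows, had 2 matches in 1 of the inner windows of CXCR4. The GC box GGGCGG, which 45.0% of all windows hold, had 3 matches before the start of CXCL12, of which the last overlaps the one before it. It had 3 before the outermost start of CXCR4, of which the first 2 overlap, and 2 in an inner window of CXCR4. The window at the outermost start of CXCR4 held the TATA box TATAAA, found in 11.5% of all windows, with its first base 30 bases before the start, where a match on the opposite strand overlaps it. The stretches below read 5′ to 3′ on the minus strand, which is the coding strand of both genes. They show what lies close to a RefSeq start of the ligand gene and of the signalling receptor gene, which for CXCL12 lies inside the span of the gene as counted, and the capitals mark the GC box on its opposite strand in CXCL12 (chr10:44385130-44385159) and the TATA box in CXCR4 (chr2:136118162-136118191).
CXCL12 promoter: gcgcgccccgccCCGCCCcgcctggctctc
CXCR4 promoter: ggagcgtgttttTATAAAagtccggccgcg

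CXCL12, the ligand, was the member with the higher level in MYCN-induced cells. Its level was 4.49, 4.19 and 4.53 CPM in control replicates 1, 2 and 3, and 9.17, 8.25 and 14.1 CPM in the induced replicates. All induced values lay above all control values, with MYCN-induced replicate 3 the highest. The means were 4.40 ± 0.187 and 10.5 ± 3.16 CPM (SD, n = 3 each), a 2.39-fold difference and a log2 fold change of 1.26 (standard error, SE, 0.20). Without MYCN-induced replicate 3 the log2 fold change was 0.99. The raw counts were 371 to 470 read pairs in the controls and 595 to 1198 in the induced libraries. These counts are not scaled for depth, which was lowest in MYCN-induced replicate 1.

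CXCR4, the signalling receptor, was at 7.14, 6.86 and 6.77 CPM in control replicates 1, 2 and 3. In the induced replicates it was at 4.52, 2.62 and 5.46 CPM. All induced values lay below all control values, but they spread widely, and the highest induced value came close to the controls. The means were 6.92 ± 0.197 and 4.20 ± 1.45 CPM (SD, n = 3 each), a 1.65-fold difference and a log2 fold change of -0.72 (SE 0.24). This value depended on which induced library was counted. It was -0.47 without MYCN-induced replicate 2 and -0.96 without MYCN-induced replicate 3.

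ACKR3, the scavenger receptor, had the widest separation of the 3 members. It was at 5.35, 5.96 and 6.24 CPM in control replicates 1, 2 and 3, and at 1.53, 0.848 and 0.814 CPM in the induced replicates. The lowest control value was far above the highest induced value, which was that of MYCN-induced replicate 1. The means were 5.85 ± 0.457 and 1.06 ± 0.402 CPM (SD, n = 3 each), 5.51-fold lower in induced cells, with a log2 fold change of -2.48 (SE 0.24). The counts behind them were 528 to 633 read pairs in the controls and 99, 79 and 69 in the induced libraries. At 69 read pairs the exact Poisson 95% interval ran from 53.7 to 87.3 and overlapped that of the highest induced count, 80.5 to 120.5, before any scaling to depth. The highest induced count came from the library with the lowest depth, so this overlap need not hold for CPM. Less ACKR3 RNA in each cell and fewer cells with ACKR3 RNA cannot be told apart in such bulk samples, and the same holds for both other genes.

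**Figure D1:**
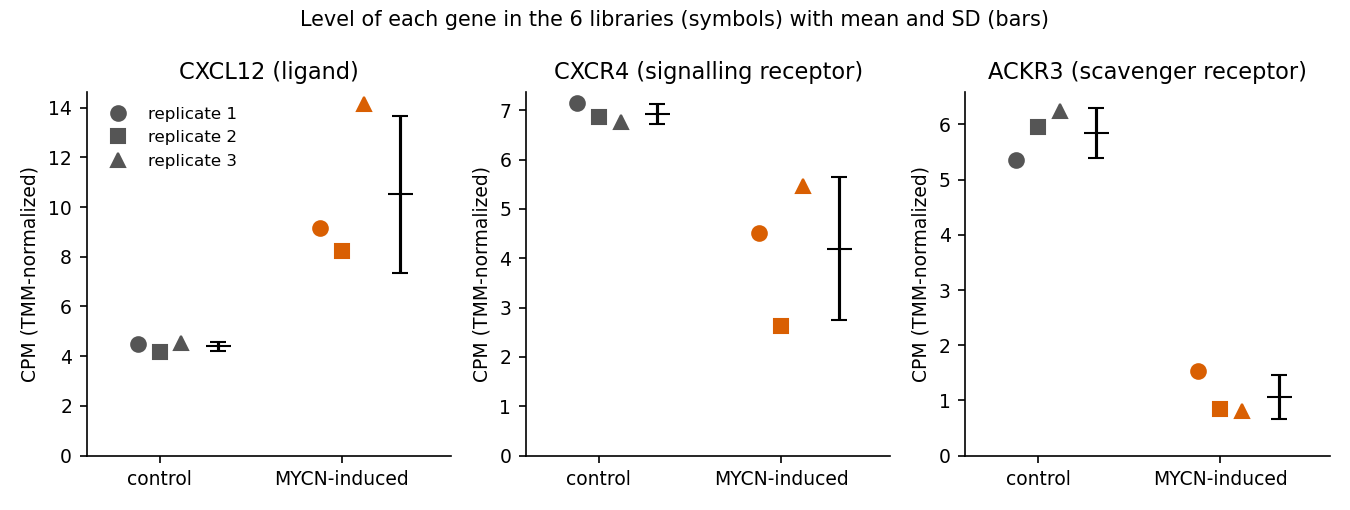
TMM-normalized CPM (vertical axes, starting at 0) of CXCL12, CXCR4 and ACKR3 in the 3 control (grey) and 3 MYCN-induced (orange) libraries, with symbols for the replicate number and black bars for the mean and SD of each group. The induced libraries lie above the controls for CXCL12, at 8.25 to 14.1 CPM, and below them for CXCR4, at 2.62 to 5.46 CPM, and ACKR3, at 0.814 to 1.53 CPM.

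The groups did not overlap for any of the 3 members. Nothing is read from that count, since the comparison chose the members and 26.3% of the 29086 tested genes had groups that did not overlap, 11.5% with higher and 14.7% with lower induced values. All 3 passed the count filter (at least 10 counts in at least 3 libraries) and had 69 counts or more in every library. The libraries with the extreme values differed between the genes. Among the induced libraries, CXCL12 and CXCR4 were both lowest in replicate 2 and highest in replicate 3, whereas ACKR3 was highest in replicate 1. MYCN itself was at 211, 221 and 199 CPM in induced replicates 1, 2 and 3, a range far narrower in proportion than that of any member.

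Levels per exon length set the 3 genes against each other, and they depend on the length used. For CXCL12 this was 6077 bases, merged from 26 annotated exons, beside 2208 for CXCR4 and 2070 for ACKR3. If the cells use a shorter CXCL12 isoform, its TPM are too low beside those of the receptors. By CPM, without division by length, the control means were 4.40 for CXCL12, 6.92 for CXCR4 and 5.85 for ACKR3. In control cells the order was CXCR4 at 5.15 ± 0.409 TPM, ACKR3 at 4.63 ± 0.136 TPM and CXCL12 at 1.19 ± 0.0802 TPM (SD, n = 3 each). The receptors lay close together, with CXCR4 at 4.80 to 5.60 TPM and ACKR3 at 4.47 to 4.72 TPM. By TPM, CXCL12 was far below both in each control library.

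In MYCN-induced cells the order was CXCR4 at 3.04 ± 0.753 TPM, CXCL12 at 2.78 ± 0.455 TPM and ACKR3 at 0.850 ± 0.352 TPM (SD, n = 3 each). CXCR4, at 2.17 to 3.51 TPM, and CXCL12, at 2.49 to 3.30 TPM, overlapped and did not differ beyond their spread by TPM. By CPM, without division by length, CXCL12 was above CXCR4 in every induced library, so their order depends on the exon length used. In MYCN-induced replicate 2 the ligand was above the signalling receptor. ACKR3, at 0.558 to 1.24 TPM, was the lowest of the 3 in every induced library.

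**Figure D2:**
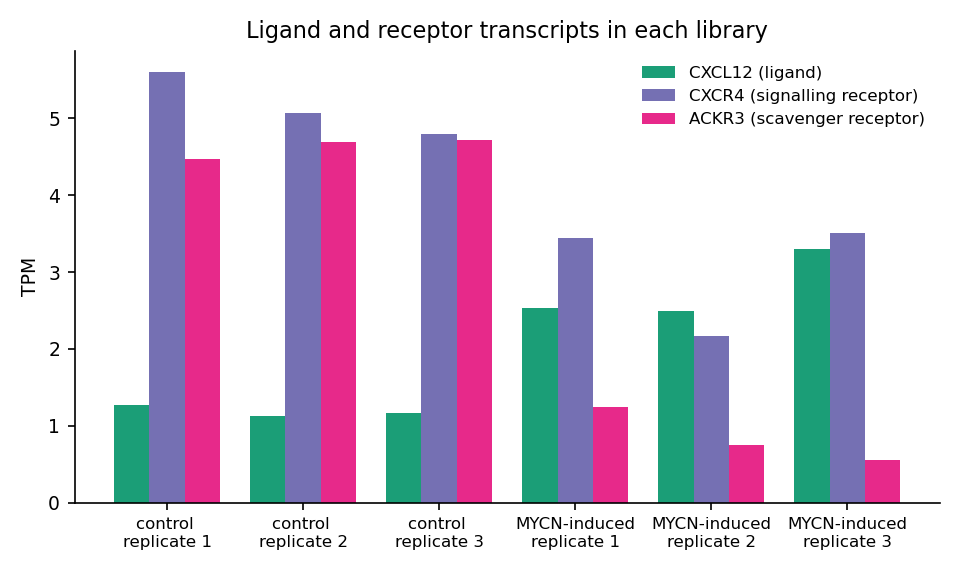
TPM (vertical axis, starting at 0) of CXCL12 (green), CXCR4 (purple) and ACKR3 (pink) in each of the 6 libraries, 1 bar per gene and library. The ligand is the lowest bar in all 3 control libraries and the scavenger receptor is the lowest bar in all 3 MYCN-induced libraries.

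The receptors were near equality in control cells, and CXCR4 was in excess in induced cells. The ratio of CXCR4 to ACKR3 TPM was 1.25, 1.08 and 1.02 in control replicates 1, 2 and 3 and 2.77, 2.90 and 6.29 in the induced replicates. On the log2 scale the ratio was 1.73 higher in induced cells, with a pooled SD of 0.48 within the groups, and 1.35 higher without MYCN-induced replicate 3. ACKR3 made up 44.4%, 48.1% and 49.6% of the summed TPM of both receptors in control replicates 1, 2 and 3, and 26.5%, 25.7% and 13.7% in the induced replicates. This ratio within a library does not depend on the normalization.

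Relative to its receptors the ligand was more abundant in induced cells, though the size of each ratio depends on the exon lengths used. The ratio of CXCL12 TPM to the summed TPM of CXCR4 and ACKR3 was 0.127, 0.115 and 0.122 in control replicates 1, 2 and 3, and 0.542, 0.851 and 0.811 in the induced replicates. The induced values were several times the control values in each library, and MYCN-induced replicate 3, with the most CXCL12, did not have the highest ratio. Among all tested genes of a library, CXCL12 stood above 29.1 to 30.1% in the controls and above 42.4 to 54.0% in the induced libraries by TPM. ACKR3 stood above 56.0 to 59.1% and above 21.5 to 30.6%, and CXCR4 above 59.5 to 61.1% and above 39.6 to 55.2%.

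The other genes of the pathway were taken from 9 lists of 176 genes in all, written from general knowledge, and tested with edgeR's quasi-likelihood test over all genes. Of the 120 that passed the count filter, 3 were called higher and 6 lower in induced cells at an adjusted p under 0.05, against 3.4% of all tested genes called in either direction, 1.02% higher and 2.38% lower. The median log2 fold change of the 120 genes was 0.024, next to a median of 0.00 over all tested genes. ACKR2, 1 of the 6, passed the filter only through the controls. The groups did not overlap for 40 of the 120, beside 26.3% of all tested genes. DESeq2 called 5 higher and 8 lower, beside 904 higher and 1199 lower among all 29086 tested genes, more than edgeR in each direction.

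Of the 5 other atypical receptors, which like ACKR3 bind chemokines without classical signalling, 3 were tested. ACKR2, a scavenger of inflammatory CC chemokines, was at 0.449, 0.271 and 0.335 CPM in the control replicates and at 0.0308, 0.0751 and 0.0826 CPM in the induced replicates (log2 fold change -2.41, SE 0.38). It had only 2.33 to 7.42 counts in the induced libraries, shared read pairs with another gene and passed the count filter through the controls alone, so its call is not read as a result. Of 12 alternatives, 8 tested it and 6 of these called it. ACKR4, which scavenges CCL19, CCL21 and CCL25, was at 3.15 ± 0.281 and 3.72 ± 0.360 CPM (SD, n = 3 each) and was not called. Per length it was at 1.94 TPM in control and 2.28 TPM in induced cells, below ACKR3 in the former (4.63 TPM) and above it in the latter (0.850 TPM). Some read pairs of ACKR4 were shared with another gene, so its own level is uncertain. GPR182, a receptor of endothelial cells that also takes up CXCL12, was at 1.36 ± 0.0616 and 1.16 ± 0.0592 CPM (SD, n = 3 each) and was not called either. It had shared read pairs as well. In all, with ACKR2 included, 1 of the 3 tested atypical receptors was called lower and 0 higher by edgeR, 1 had an unadjusted p under 0.05, and DESeq2 gave 1 and 0.

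Among 17 other signalling chemokine receptors, 5 were measured well enough to be tested. CCR7, which guides lymphocytes to lymph nodes, fell from 0.469 ± 0.0272 to 0.230 ± 0.0347 CPM (SD, n = 3 each), with a log2 difference of -1.03 (SE 0.21, edgeR adjusted p = 0.0440). It passed in 5 of the 11 alternatives that tested it, with adjusted p from 0.0375 to 0.197. CCR7 had only 17.0 to 50.5 counts per library, and some of its read pairs were shared with another gene, so its own level is uncertain. The most abundant by TPM was CXCR5, the CXCL13 receptor, at 2.49 ± 0.0851 TPM in control and 2.43 ± 0.166 TPM in induced cells (SD, n = 3 each). In control cells it was below both CXCR4, at 5.15 TPM, and ACKR3, at 4.63 TPM, and in induced cells it was below CXCR4, at 3.04 TPM, and above ACKR3, at 0.850 TPM. Some read pairs of CXCR5 were shared with another gene, so its place in this order is uncertain.

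Most other chemokine ligands were not measured well enough to be tested. Of 42 listed, 18 had no reads in any library and 7 were tested. CCL2, which attracts monocytes, was the only one called, and it fell from 1.06, 1.06 and 0.937 CPM in the control replicates to 0.586, 0.569 and 0.472 CPM in the induced replicates. Its log2 fold change was -0.91 (SE 0.17, edgeR adjusted p = 0.0313), and its adjusted p ran from 0.003939 to 0.170 over the alternatives. CXCL17 was at 1.47 ± 0.358 and 1.21 ± 0.0694 TPM and CCL27 at 1.09 ± 0.212 and 0.804 ± 0.172 TPM (SD, n = 3 each), beside 1.19 TPM for CXCL12 in control cells and 2.78 TPM in induced cells, and neither was called. CCL27 shared read pairs with another gene. CXCL11, the other chemokine that binds ACKR3, was not tested, with 0 to 3 counts per library.

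Of 10 further ligands or partners of the receptors, 8 were tested and edgeR and DESeq2 called none, with 1 at an unadjusted p under 0.05. HMGB1, a nuclear protein that forms a complex with CXCL12 once released, was at 108 ± 7.62 TPM in control and 119 ± 45.5 TPM in induced cells. EGFR, a growth factor receptor described to interact with ACKR3, was at 36.6 ± 3.59 and 33.2 ± 5.15 TPM, and the sialomucin CD164, a partner of CXCR4, at 14.3 ± 1.14 and 16.0 ± 1.93 TPM (SD, n = 3 each throughout). HMGB1 had a log2 fold change of 0.10, and without MYCN-induced replicate 3 it was 0.32 and HMGB1 was called. The cytokine MIF, which also binds CXCR4, was listed at 3.12, 0 and 8.57 CPM in the controls, with counts shared with another gene, and whether the 0 is a measured level is not known.

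Arrestins and the kinases that recruit them to active receptors act right below both CXCR4 and ACKR3. GRK5 was the only one of 7 that was called. It fell from 27.9, 27.2 and 27.6 CPM in the control replicates to 16.8, 17.6 and 14.6 CPM in the induced replicates, a log2 fold change of -0.76 (SE 0.09, edgeR adjusted p = 0.007623). The groups were widely separated and the call was lost in 1 of 12 alternatives, without control replicate 2 (adjusted p = 0.0636, the top of a range from 2.27e-09). GRK3, the most abundant kinase of the list, was at 217 ± 8.77 and 173 ± 17.3 CPM (SD, n = 3 each) and was not called (log2 fold change -0.33, edgeR adjusted p = 0.0856). GRK2 was at 8.40 ± 1.09 and 9.25 ± 1.71 TPM and GRK6 at 11.8 ± 1.90 and 13.5 ± 1.18 TPM (SD, n = 3 each). The arrestins ARRB1 and ARRB2 had log2 fold changes of -0.27 (SE 0.18) and 0.01 (SE 0.12) and were not called.

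Of 40 genes for G proteins and early signalling steps below CXCR4, 38 were tested. Of these, edgeR called 2 higher and 1 lower, beside 1.02% and 2.38% of all tested genes, and 13 had an unadjusted p under 0.05. DESeq2 called 3 higher and 3 lower, beside 904 and 1199 of all 29086 tested genes. The groups did not overlap for 14, 9 with higher and 5 with lower induced values, beside 26.3% of all tested genes. DOCK2, an activator of RAC in blood cells, rose from 2.25, 2.57 and 2.19 CPM in the control replicates to 6.04, 5.30 and 10.9 CPM in the induced replicates (log2 fold change 1.66, SE 0.27, edgeR adjusted p = 0.0206). As for CXCL12, MYCN-induced replicate 3 was the highest, and without it the log2 fold change of DOCK2 was 1.29. DOCK2 was called in 8 of 12 alternatives, with adjusted p from 8.519e-08 to 0.105. PXN, the focal adhesion adaptor paxillin, rose from 85.9 ± 4.10 to 113 ± 11.2 CPM (SD, n = 3 each), with a log2 difference of 0.40 (edgeR adjusted p = 0.0496, in a range of 0.006983 to 0.187 over the alternatives, of which 5 of 12 called it). GNG2, a G protein gamma subunit, fell from 59.0 ± 0.954 to 33.7 ± 7.90 CPM (SD, n = 3 each), with a log2 difference of -0.81 (SE 0.16, edgeR adjusted p = 0.0378). GNG2 was called in 7 of 12 alternatives, with adjusted p from 4.762e-04 to 0.165. The 3 most abundant genes of the list were not called, with the GTPase RAC1 at 152 ± 13.6 and 146 ± 15.2 TPM, the beta subunit GNB1 at 127 ± 3.35 and 130 ± 11.2 TPM and the phosphatase gene PTPN11 at 92.8 ± 5.87 and 104 ± 17.9 TPM (SD, n = 3 each). Without MYCN-induced replicate 3, PTPN11 was called higher, with a log2 fold change of 0.20. The inhibitory alpha subunits GNAI1, GNAI2 and GNAI3, through which CXCR4 signals, had log2 fold changes of -0.05, 0.03 and -0.08 and were not called.

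None of the 15 genes that internalize and sort CXCR4 was called by edgeR, with 1 at an unadjusted p under 0.05. DESeq2 called 1 of them higher, the ubiquitin ligase NEDD4, with a log2 fold change of 0.79. With edgeR its log2 fold change was 0.77, and without MYCN-induced replicate 3 it was 0.43 and NEDD4 was called. Clathrin heavy chain CLTC was at 102 ± 7.44 and 101 ± 9.12 TPM, the late endosome GTPase RAB7A at 53.7 ± 1.13 and 55.0 ± 1.36 TPM and the clathrin adaptor subunit AP2M1 at 53.5 ± 3.71 and 54.8 ± 3.88 TPM (SD, n = 3 each). ITCH, the ligase that marks CXCR4 for degradation, had a log2 fold change of -0.03 (SE 0.07).

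Proteases that trim CXCL12 and proteoglycans that hold it at the cell surface formed the next list, with 20 of 22 genes tested. SDC2, a heparan sulfate proteoglycan, was the only one called. It fell from 83.7, 81.6 and 78.1 CPM in the control replicates to 57.8, 54.5 and 51.3 CPM in the induced replicates (log2 fold change -0.57, SE 0.07, edgeR adjusted p = 0.008625), and 11 of 12 alternatives called it, with adjusted p from 1.25e-07 to 0.0757, the highest without control replicate 2. Of the 20 genes, 14 had a log2 fold change below 0, with a list median of -0.089. The groups did not overlap for 8, all lower in induced cells, as for 14.7% of all tested genes. Other lists leaned upwards, with 26 of 38 G protein and signalling genes and 11 of 15 sorting genes above 0. In those 2 lists, 9 and 3 genes did not overlap with higher induced values, as for 11.5% of all tested genes. No trend of a list is read from these counts. The gelatinase MMP2 was the most abundant, at 90.3 ± 4.64 and 93.0 ± 12.2 TPM, ahead of the heparan sulfate polymerase EXT1 at 28.7 ± 2.98 and 28.5 ± 1.46 TPM (SD, n = 3 each). DPP4, which removes the amino terminus of CXCL12, had 0 or 1 counts per library.

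The last list held 18 transcription factors and regulators described for CXCR4, ACKR3 or CXCL12, of which 17 were tested. REST, a repressor of neuronal genes, was called, rising from 150, 149 and 143 CPM in the control replicates to 175, 186 and 178 CPM in the induced replicates (log2 fold change 0.29, SE 0.06, edgeR adjusted p = 0.0464). With library size only its adjusted p was 0.147, in a range of 0.003021 to 0.239 over the alternatives, of which 4 of 12 called it. HIF1A, the hypoxia factor that raises CXCR4, was at 99.6 ± 7.35 and 84.5 ± 5.32 TPM (SD, n = 3 each) and was not called (log2 fold change -0.23, SE 0.07, edgeR adjusted p = 0.128). Without MYCN-induced replicate 3, HIF1A was called lower, with a log2 fold change of -0.28. TWIST1 was at 47.7 ± 2.92 and 38.5 ± 16.6 TPM and YY1, a repressor of CXCR4, at 33.1 ± 2.62 and 35.1 ± 5.93 TPM (SD, n = 3 each). HIC1, a repressor of ACKR3, had a log2 fold change of -0.14 (SE 0.14, edgeR adjusted p = 0.649).

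**Figure D3:**
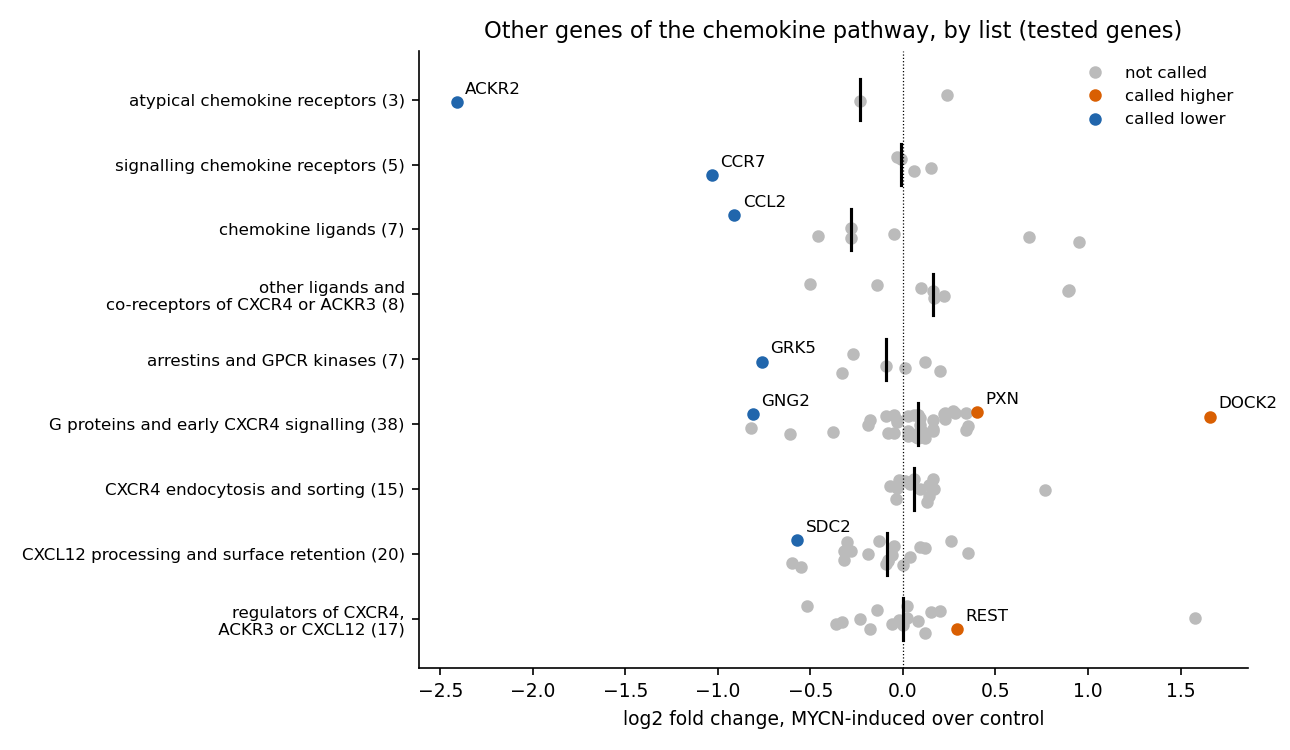
Log2 fold change of MYCN-induced over control cells (horizontal axis) for the tested genes of the 9 pathway lists (rows, number tested in brackets), with 1 point per gene, blue for called lower, orange for called higher, grey for not called by edgeR at an adjusted p under 0.05, and a black line at the list median. Called genes are few, 3 higher and 6 lower among 120, and the most negative point is ACKR2 at -2.41, which passed the count filter only through the controls.

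The genes around the members on the chromosomes were tested as well. Within 500 kb, 1 gene around CXCL12, 9 around CXCR4 and 11 around ACKR3 were tested. Of these 21, 1 was called higher and 0 lower by edgeR, 3 had an unadjusted p under 0.05, and DESeq2 also called 1 and 0. Of all 29086 tested genes edgeR called 3.4% and DESeq2 called 2103, so these counts say nothing particular about the neighbourhoods. The nearest tested genes on the sides of ACKR3 were IQCA1, 60252 bases away, at 3.95 ± 0.391 and 3.63 ± 0.279 CPM, and COPS8-DT, 328443 bases away on the other side, at 4.10 ± 0.290 and 4.10 ± 0.402 CPM (SD, n = 3 each). Neither was called, beside the ACKR3 log2 fold change of -2.48.

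GBX2, a homeobox gene 399401 bases from ACKR3, rose from 9.70, 10.3 and 10.8 CPM in the control replicates to 16.0, 15.5 and 13.4 CPM in the induced replicates (log2 fold change 0.54, SE 0.10, edgeR adjusted p = 0.0360). Its direction was opposite to that of ACKR3, and 5 of 12 alternatives called it, with adjusted p from 1.99e-04 to 0.193. Beside CXCR4, the pseudogene HNRNPKP2 at 80965 bases had a log2 fold change of 0.21 (SE 0.46). The only tested gene near CXCL12 was LINC00840, 469161 bases away, at 0.109 ± 0.0355 and 0.277 ± 0.0855 CPM (SD, n = 3 each), with a log2 difference of 1.35 (edgeR adjusted p = 0.0937).

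**Figure D4:**
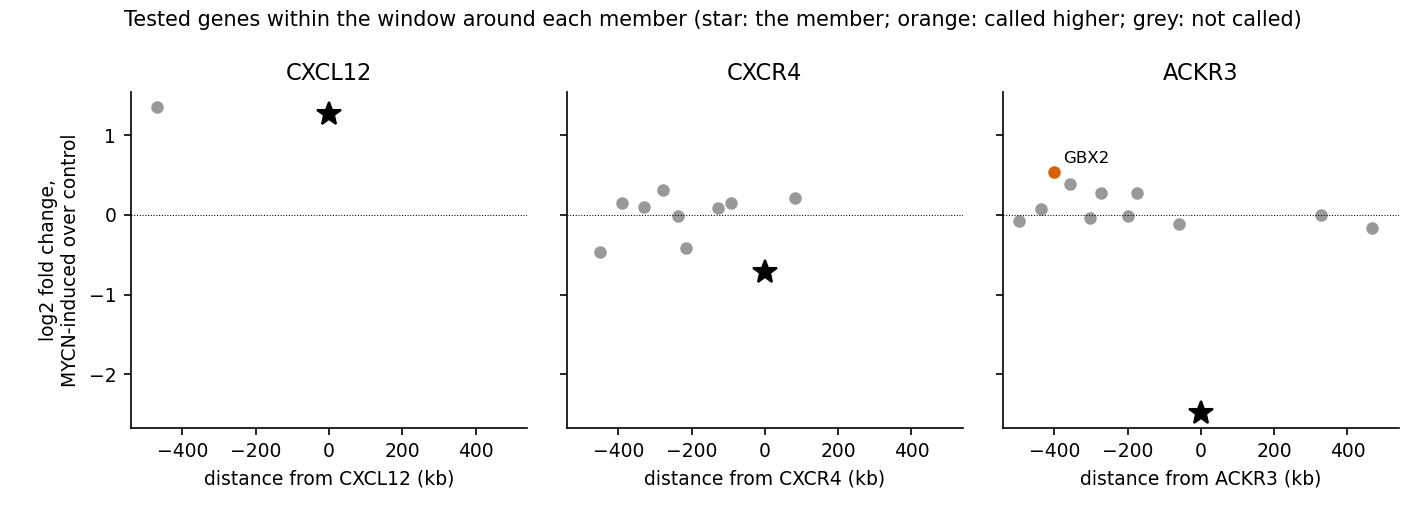
Log2 fold change of MYCN-induced over control cells (vertical axis) for the tested genes within 500 kb of each member, by distance from the member in kb (horizontal axis, negative towards lower coordinates), with the member as a black star, a called gene in orange and the others in grey. ACKR3 at -2.48 lies far below its 11 neighbours, of which GBX2 at 0.54 is the only one called.

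The genes whose profile over the 6 libraries was most like that of each member were picked by Pearson correlation of log2 CPM among 18534 genes with a mean of at least 1 CPM. Both groups enter each correlation, so any gene that separates the groups scores high, and no p is given. For ACKR3 these were TENM4 (r = 1.0 after rounding), DPH6-DT (0.999), CACNA2D2 (0.999), PCDH19 (0.998) and MXRA8 (0.998). TENM4, a large adhesion protein of developing neurons, was at 42.5 ± 0.806 and 21.3 ± 2.83 CPM in control and induced cells, and PCDH19, a protocadherin, at 5.38 ± 0.270 and 2.83 ± 0.302 CPM (SD, n = 3 each). None of the 5 had a log2 difference as large as that of ACKR3, with values from -1.07 to -0.61.

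For CXCL12 the most alike genes were KLF5 (r = 0.999), PARP8 (0.998), TARS1 (0.998), IFRD1 (0.997) and ELL2 (0.996), all with MYCN-induced values above the controls. TARS1, the cytosolic threonyl-tRNA synthetase, was at 187 ± 2.31 and 296 ± 45.8 CPM in control and induced cells, and the elongation factor gene ELL2 at 8.94 ± 0.773 and 21.9 ± 5.96 CPM (SD, n = 3 each). For CXCR4 they were WDR83OS (0.996), APH1A (0.996), ENSG00000273997 (0.996), ZNF497-AS1 (0.994) and MGP (0.991). MGP, a matrix protein that limits calcification, was at 2.98 ± 0.0366 and 1.85 ± 0.582 CPM, and APH1A, a gamma-secretase subunit, at 107 ± 3.19 and 87.7 ± 11.6 CPM (SD, n = 3 each). Between the members, r over the 6 libraries was -0.937 for CXCL12 and ACKR3, 0.784 for CXCR4 and ACKR3 and -0.536 for CXCL12 and CXCR4, again with the groups included.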

How the data were processed

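The authors deposited estimated counts: read pairs per gene over exons, from unique STAR alignments (2.7.1a in the submitters' processing notes) to GRCh38. The file header names featureCounts 1.6.4 with pairs on several genes shared in equal fractions and no strand option, while the notes name version 1.5.1 and the methods a strand option. Per library, 31.9 to 33.4% of the genes with counts had a count that was not whole, which marks shared pairs. Counts were used as deposited and rounded. Symbols were matched for 99.65% of 60651 identifiers. Spike-in sequences (92) had 0 counts and were left out.

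edgeR 4.0.16 in R 4.3.3 was applied to the 29086 genes that reached 10 counts in 3 or more of the libraries (TMM, quasi-likelihood, no replicate block, Benjamini-Hochberg over all tested genes, threshold 0.05). The standard error is the log2 fold change divided by the square root of F. CPM are TMM-normalized, and TPM use exon lengths. DESeq2 1.42.0 and the other alternatives appear in the closing section. On counts simulated for this comparison over 28620 genes, edgeR called 54 of 100 genes changed 2-fold, 89 of 100 changed 4-fold and 12 unchanged genes.

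Groups and replicate numbers came from the sample titles. The study names 3 biologically independent experiments and does not state whether cultures of the same number were paired. Replicates differed by more than sampling noise (chi-square per gene 12.1 to 145.6). Replicate numbers were not taken as pairs. The members and lists were chosen with earlier results of these data known. Genes named were the members and MYCN, called genes and the 3 most abundant of each list, the nearest tested and called genes within 500 kb, and the 5 most alike genes per member. Some items that fall under this rule are not reported here. Others of a known role in the pathway were added after their values were seen. Counting intervals are exact Poisson intervals and cover counting error only.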

Additional observations from a re-analysis of the deposited data

How the results depend on the processing

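Over the alternatives, the log2 fold change ran from 0.99 to 1.41 for CXCL12, from -0.96 to -0.47 for CXCR4 and from -2.81 to -2.32 for ACKR3, each end in a fit without 1 MYCN-induced library, and the log2 ratio of CXCR4 to ACKR3 from 1.35 to 1.94. No direction changed among these. ACKR3 was not fitted with at least 100 counts in every library, since its induced counts were lower. For all genes, 298 were called higher and 692 lower. DESeq2 gave 904 and 1199, no count filter 470 higher, at least 100 counts in every library 404 lower, an adjusted p under 0.01 gave 36 and 145, and one under 0.1 gave 706 and 1242. Fits that each left out 1 library gave 18 to 1060 higher and 72 to 1279 lower, the most without MYCN-induced replicate 3 and the fewest without control replicate 2. Of the pathway genes, 3 were higher and 6 lower with edgeR, and 33 had an unadjusted p under 0.05. DESeq2 called 5 higher, the replicate block 1 higher, at least 100 counts 2 lower, an adjusted p under 0.01 gave 0 higher and 2 lower, and one under 0.1 gave 10 lower. Leaving out 1 library gave 0 to 7 higher and 0 to 12 lower. In the 4 such fits with 0 higher (without each control replicate and without MYCN-induced replicate 1), 6 to 14 genes were higher at an unadjusted p under 0.05, and in the one with 0 lower, without control replicate 2, 13 were lower. Near the members, the call of GBX2 was lost with library size only, with the replicate block and at an adjusted p under 0.01 (0 genes each, with 2 or 3 at an unadjusted p under 0.05 in these edgeR fits, and 1 called by DESeq2), 2 genes passed at 0.1, and leaving out 1 library gave 0 to 1, with 2 to 4 at an unadjusted p under 0.05. Deviations of same-numbered libraries from their group means correlated at 0.216, -0.019 and 0.074, and those of differently numbered libraries at -0.193 to 0.082. With so few libraries these values cannot decide whether same-numbered libraries were paired. The replicate block called 265 genes higher and 575 lower, 689 of them among the 990 called without it, and 1 pathway gene higher and 5 lower.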
